A study of Mus musculus with 18 samples.

Results

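Long noncoding loci with a measurable level in every mouse germ cell library were examined: 180 of the 13218 loci in the deposited table. A locus was taken when its value was at least 1 FPKM (fragments per kilobase, a level corrected for transcript length and library depth) in each of the 18 libraries. A further condition was that the means of priSG-B replicates 1 to 3, of pacSC replicates 1 and 2 and of rST replicates 2 and 3 lay within 4-fold of each other. The first condition left 374 loci, which is 9.08% of the 4117 loci that reached 1 FPKM in at least 3 libraries, and the second left 189. Another 9 were set aside by name, among them opposite-strand transcripts, hosts of small nucleolar RNAs and the known noncoding RNAs Tug1 and Neat1. Because the choice used the level in all 18 libraries, the levels below are a description and carry no test. Just inside the minimum stood Gm50169, with a lowest value of 1.01 FPKM, and Gm50203, with 1.02 FPKM, and just outside it stood Gm49521 with 0.992 FPKM and Gm48273 with 0.981 FPKM. At the fold limit, Gm42546 at 3.98-fold and Gm29055 at 3.99-fold were inside, and Gm43663 and Gm35419, both at 4.01-fold, were outside.

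The animals were ICR mice, and RNA came from 6 germ cell populations of the testis, obtained by letting cells settle in a STA-PUT velocity gradient, which sorts them mainly by size. The populations were priSG-A at postnatal day 6, priSG-B at day 9, plpSC at day 14, pacSC at day 21, rST at day 35 and elST at day 56, each with 3 libraries. These abbreviations are not expanded in the labels, although SG, SC and ST are the usual short forms of spermatogonia, spermatocytes and spermatids. No genotype or treatment is given beyond strain and age, the tissue label is missing from elST replicate 3, and neither the purity of the fractions nor the number of animals behind a library is stated. The series text mentions duplicates while the labels number 3 samples per type, and nothing says that these came from separate animals, so a p-value here measures only the spread between libraries.

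As background, long noncoding RNAs are transcripts that are not thought to encode a protein. Many are made at low levels and in few cell types, and the testis makes more kinds of them than most tissues. Some lie opposite a coding gene or start beside its promoter, and others are copies of processed messenger RNAs or of repeated sequence that were inserted elsewhere in the genome. A read that matches several such copies, or both strands of one place in a library that does not mark strand, cannot be given to one gene with certainty.

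Sequence shared with coding genes was more frequent among these loci than among the other tested loci, and examples are shown first. Gm10076, the most abundant of the 180, is annotated as a lincRNA of 1 exon and 384 bases at chr14:105681828-105682211 on the plus strand (mm10), outside any coding gene. Its transcript matched Rpl41, which encodes a protein of the large ribosomal subunit, over 383 bases at 99.5% identity. The 78 coding bases of Rpl41, stop codon included, are present in Gm10076 with 0 differences, as the pair of lines shows.
Gm10076: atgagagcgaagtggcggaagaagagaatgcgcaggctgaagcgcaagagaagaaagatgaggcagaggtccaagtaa
Rpl41: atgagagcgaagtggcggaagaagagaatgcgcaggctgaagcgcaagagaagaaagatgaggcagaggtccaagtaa
Gm28901, a lincRNA at chr1:97024516-97025565 on the minus strand, contains 410 coding bases of Hnrnpf, an RNA-binding protein of the nucleus, in the opposite orientation and with 2 differences. Coding bases 476 to 595 of Hnrnpf are printed, with the reverse complement of Gm28901 above, and the capital marks the single position that differs in this stretch.
Gm28901: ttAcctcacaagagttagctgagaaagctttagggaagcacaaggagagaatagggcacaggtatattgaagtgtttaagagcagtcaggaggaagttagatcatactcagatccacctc
Hnrnpf: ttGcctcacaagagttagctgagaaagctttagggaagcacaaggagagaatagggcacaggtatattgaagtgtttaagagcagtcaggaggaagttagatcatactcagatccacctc
Gm44510, at chr7:56012948-56017479 inside the magnesium transporter gene Nipa1 on the same strand, carries all 399 coding bases of Rps12, a protein of the small ribosomal subunit, again reversed and with 0 differences. The first 120 coding bases are shown for both.
Gm44510: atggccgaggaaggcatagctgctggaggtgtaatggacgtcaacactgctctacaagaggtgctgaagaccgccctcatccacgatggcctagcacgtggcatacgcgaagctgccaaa
Rps12: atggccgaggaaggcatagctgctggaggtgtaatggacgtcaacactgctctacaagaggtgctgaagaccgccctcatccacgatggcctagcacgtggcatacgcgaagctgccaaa

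In the whole set, 96 of the 180 loci (53.3%) held at least 100 bases that matched, at 95% identity or more, a transcript of a coding gene or of the rRNA or mitochondrial loci lying over 1 kb away. The share among the other 3937 tested loci was 14.0% (550 loci). Such matches, pooled over all genes matched, together covered at least 50% of a transcript in 57 of the 180 (31.7%) and in 148 of the others (3.76%). The share with a copy was 10.8% among loci that reached 1 FPKM in 3 to 6 libraries, 10.7% in 7 to 12, 25.8% in 13 to 17 and 47.6% in all 18. It was 43.8% among the 185 loci that reached 1 FPKM in every library but exceeded the 4-fold limit. The loci inside and outside the fold limit thus had similar shares, and whether those shares differ was not tested. By length and identity the leading match was to D10Wsu102e in 16 loci, to Tmem72 in 16, to the olfactory receptor gene Olfr624 in 5 and to the pheromone receptor gene Vmn2r53 in 4. The number of genes matched varied by locus, from 1 for Gm10076 and Gm42713 to 24 for Gm44183, 38 for Gm47221 and 40 for Gm47164. A leading match therefore does not name the source of a locus.

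Exons shared in place with a coding gene, on either strand, were present in 79 of the 180 loci (43.9%) and in 1181 of the other tested loci (30.0%). The share was 49.7% among the 185 loci outside the fold limit and 51.8% among loci at 1 FPKM in 13 to 17 libraries. It is thus not particular to the 180. Of the 180, 71 shared exon bases with a gene on the opposite strand and 12 with a gene on the same strand. Genes of general cell machinery, listed by symbol prefix, were on the other side of such an overlap for 10 loci (5.56%) against 34 of the other tested loci (0.864%). Examples are Gm28037 with Rpl24, Gm50371 with the ubiquitin-conjugating enzyme gene Ube2d2a, Gm50203 with the splicing factor gene Sf3b2, Gm17092 with Hnrnpd and Gm30934 with the ATP synthase gene Atp5l. A copy or a shared exon was present in 159 of the 180 (88.3%) against 40.2% of the other tested loci. That share was 81.6% among the 185 loci outside the fold limit and 69.6% among loci in 13 to 17 libraries. Libraries were made with a kit that, per the labels, was Illumina TruSeq RNA, which keeps no record of strand, so within a shared exon reads of the coding gene and of the noncoding one cannot be told apart. The shared part can be small: it is 4.1% of the exon bases of E130307A14Rik and 0.65% of those of 1700028E10Rik, and only reads in that part are affected.

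**Figure D1:**
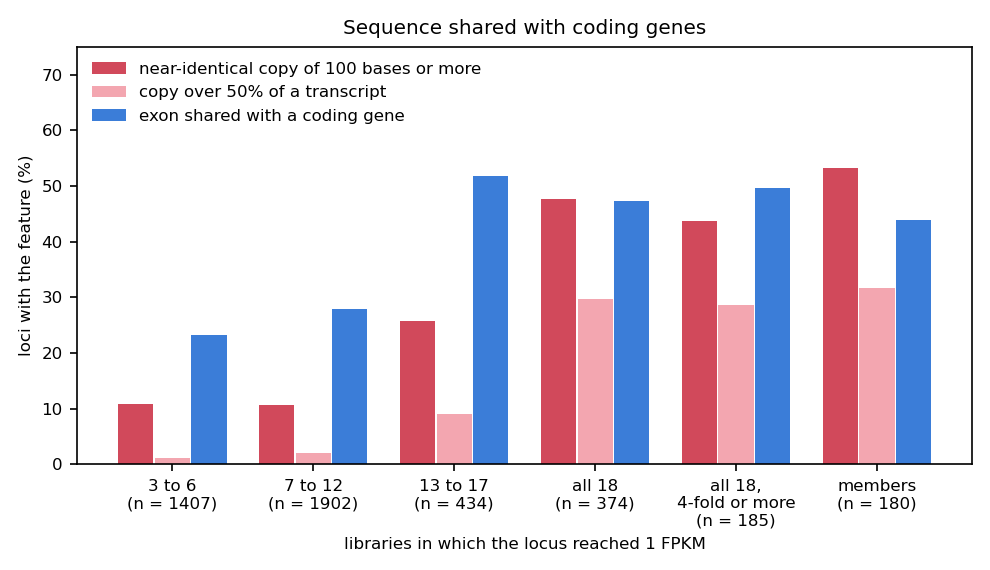
Bars give the percent of loci (y axis) with each feature, grouped by the number of libraries in which they reached 1 FPKM (x axis, n below each group). The features are a near-identical copy of 100 bases or more and an exon shared with a coding gene. The third, a copy over 50% of a transcript, pools the matches to all genes. Near-identical copies go from 10.8% of loci seen in 3 to 6 libraries to 53.3% of the 180 loci.

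By annotation type, 59 of the 180 were antisense, 45 TEC (a GENCODE class of transcripts awaiting experimental follow-up), 40 lincRNA, 25 processed transcripts, 5 sense intronic and 4 bidirectional promoter RNAs, and 2, Gm10382 and Gm10518, were typed as coding. TEC loci made up 25% of the 180 and 19.1% of the other tested loci, while lincRNAs made up 22.2% and 36.8%. A single exon block was recorded for 41.7% against 28.5%, and the median exon length was 1684.5 against 1164 bases. Among the 185 loci outside the fold limit and loci in 13 to 17 libraries, TEC made up 22.2% and 22.6% and lincRNAs 21.6% and 20.3%. A single exon block was recorded for 37.8% and 38.5% of these, and median exon lengths were 1533 and 1509 bases. These traits are thus not particular to the 180. Chromosome 5 held 27 of the 180 (15%) against 9.60% of the others. The X chromosome held 2, Gm15298 and 4933407K13Rik, and the Y chromosome held Gm37158.

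Some libraries did not go with their labels, which matters for every level below. 1700027A15Rik, whose exons overlap the spermatid gene Tnp1, stood between 874 and 4539 FPKM in plpSC replicate 3, pacSC replicate 3, both rST replicates 2 and 3 and elST replicate 2. It was under 1 FPKM in 9 libraries, rST replicate 1 and elST replicate 1 among them. Of the coding markers listed for spermatogonia, spermatocytes, spermatids, Sertoli, Leydig, peritubular, endothelial and red blood cells and macrophages, 0 matched a row, so cell identity was not checked with them. The rRNA-derived locus AY036118 stood between 7.25 and 36.2 FPKM in priSG-B replicates 1 to 3, pacSC replicates 1 and 2 and elST replicate 3, and between 1998 and 13911 FPKM in the other 12 libraries. In an earlier look at these data 5 libraries were named as unlike the rest of their type, namely replicate 1 of elST and rST and replicate 3 of pacSC, plpSC and priSG-A, and results are given with and without them. Depth inferred from the steps between low FPKM values was 31.7 to 92.2 M (mega) fragments. At these depths the 170 loci over 400 bases long had at least 13 inferred fragments in every library, the lowest being in rST replicate 3.

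The 180 loci had mean levels between 1.66 and 2212 FPKM, with a median of 6.89 FPKM against 1.49 FPKM for the other tested loci. A mean above 20 FPKM was reached by 27 loci, and 67 stayed under 5 FPKM. The ratio of the highest to the lowest library had a median of 5.0 and ranged from 1.81 to 45.8; it was under 4 for 50 loci and over 10 for 15. Leaving out the 5 libraries changed the median ratio to 4.74. For the other tested loci the ratio exists only where every library had some signal, and its median over those loci was 32.5. The minimum of 1 FPKM in every library raises the means and limits the ratios of the 180 by construction, so nothing is read from how these medians compare. For the 185 loci outside the fold limit the median of the means was 12.1 FPKM. In bulk RNA, fewer cells of a type and less RNA per cell cannot be told apart. Of the 180, 41 had their 3 rule means within 2-fold.

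The level of the set was similar from library to library except in 2 rST libraries. The median over the 180 loci was 3.39 FPKM in rST replicate 2 and 4.57 FPKM in rST replicate 3, and lay between 5.45 and 7.98 FPKM in the other 16. Over the other tested loci the medians ran from 0.235 FPKM in plpSC replicate 1 to 1.91 FPKM in plpSC replicate 3. The lowest value of a locus fell in rST replicate 2 for 58 of the 180, in rST replicate 3 for 27 and in priSG-B replicate 3 for 26. The highest fell in pacSC replicate 3 for 29, in priSG-A replicate 1 for 23 and in plpSC replicate 1 for 19. The 180 made up between 6.28% and 13.4% of the loci at 1 FPKM or more in a library, and between 1.81% and 17.7% of its summed FPKM.

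**Figure D2:**
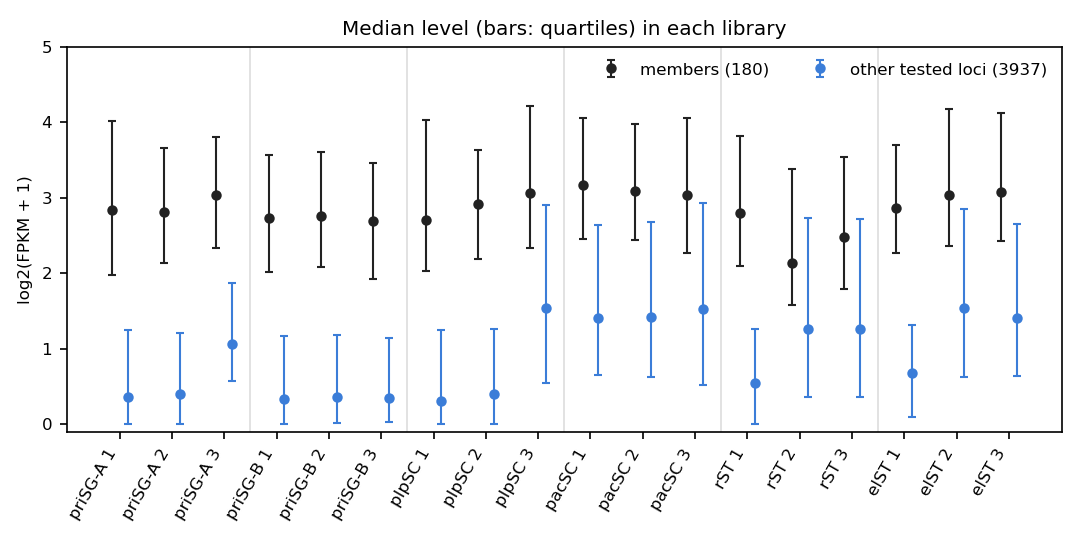
Points are the median log2(FPKM + 1) in each library (x axis) of the 180 loci (black) and of the 3937 other tested loci (blue), and bars span the quartiles. The black medians dip in rST replicates 2 and 3, while the blue ones are lowest in the priSG-A 1 and 2, priSG-B and plpSC 1 and 2 libraries.

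Across the 180 loci, log2 levels of libraries of the same type correlated with r between 0.714 and 0.994 (median 0.889 over 18 pairs), and those of different types with a lowest r of 0.565 and a median of 0.841 over 135 pairs. These values are across loci, which are not replicates. For 14 of the 18 libraries the most similar library by this measure had another type label. The highest r of all, 0.995, joined pacSC replicate 1 and elST replicate 3, whose values differed by a median of 0.06 on the log2 scale, less than pacSC replicates 1 and 2 (0.10). Over all tested loci the same-type pairs ranged down to 0.03 (rST replicates 1 and 3), with a median of 0.606.

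The steadiest locus was E130307A14Rik at chr10:39621412-39732007, annotated as antisense, with a start within 1 kb of Rev3l, the catalytic subunit of a translesion DNA polymerase, and exon overlap with the signalling adaptor gene Traf3ip2 over 4.1% of its exon bases. E130307A14Rik measured 12.6, 11.3 and 12.2 FPKM in priSG-A, 12.4, 13.5 and 12.4 in priSG-B and 14.9, 11.3 and 17.6 in plpSC. It measured 13.5, 14 and 18 FPKM in pacSC, 13.5, 12.6 and 9.94 in rST and 16.9, 14.9 and 13.7 in elST. The 3 elST values were above those of priSG-A, priSG-B and rST, pacSC was above priSG-A, and the plpSC values overlapped with every type. The highest value was 1.81 times the lowest.

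The next 4 in this order were Gm50371 (ratio 1.92), 9130221H12Rik (1.93), Gm46430 (2.04) and Gm17484 (2.09). Gm50371 shares all its exon bases with Ube2d2a and Cxxc5 on the same strand, and its values lay between 18.1 FPKM in priSG-A replicate 1 and 34.7 FPKM in priSG-A replicate 3, so that its whole range falls within 1 type. 9130221H12Rik, opposite the kinase gene Gsk3a over 52.0% of its exon bases, had values between 3.48 FPKM in elST replicate 1 and 6.72 FPKM in plpSC replicate 3. Gm17484, which overlaps the phospholipase gene Ddhd2 and the chaperone regulator gene Bag4, ran from 3.21 FPKM in pacSC replicate 3 to 6.71 FPKM in priSG-B replicate 2. Gm46430 at chr13:74579358-74617945, a lincRNA of 13 exon blocks outside any coding gene, measured 15.1, 13.1 and 9.83 FPKM in priSG-A, 13.4, 13.4 and 14 in priSG-B and 12.6, 9.9 and 7.51 in plpSC. In pacSC it measured 8.05, 8.48 and 11.2 FPKM, in rST 13.1, 8.28 and 10.6 and in elST 9.34, 7.41 and 9.03. Its 3 elST values lie below all 3 priSG-A and all 3 priSG-B values, while plpSC, pacSC and rST overlap with elST. Of a Gm46430 transcript, 65.6% matches other genes at 95% identity or more, D10Wsu102e among them, and how much of its level comes from those genes was not tested.

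Of 88 known noncoding RNA names searched, 61 were in the table, 38 passed the filter, 11 reached 1 FPKM in every library and 3 were among the 180. Tug1 (2.15-fold), Neat1 (1.64-fold) and Oip5os1 (3.88-fold) also met both level conditions and were set aside by name only. 1810026B05Rik, also known as Chaserr, lies beside Chd2, a chromatin remodeller whose level it is known to restrain, and shares 30.5% of its exon bases with Chd2 on the same strand. It measured 10.7, 18.8 and 15.1 FPKM in priSG-A, 23.4, 26.5 and 22.7 in priSG-B and 12.9, 23.4 and 16.3 in plpSC. Its later values were 30.6, 33.9 and 9.94 FPKM in pacSC, 13.5, 19.5 and 12.1 in rST and 9.04, 15.2 and 29.1 in elST. elST replicate 1 and pacSC replicate 3 were the 2 lowest libraries and pacSC replicate 2 the highest, so the range within pacSC nearly covers that of all types.

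Lncpint, a long noncoding RNA induced by the tumour suppressor Trp53, overlapped no coding gene and held no copy. It measured 6.07, 8.63 and 10.7 FPKM in priSG-A, 10.9, 11.1 and 11.6 in priSG-B and 7.51, 12.8 and 4.31 in plpSC. Thereafter it measured 5.76, 5.38 and 5.14 FPKM in pacSC, 10.4, 6.31 and 5.42 in rST and 13.2, 5.68 and 5.11 in elST. The 3 pacSC libraries lay under the 3 priSG-B and the 3 priSG-A libraries, and the plpSC, rST and elST libraries spread over the range of both.

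Dleu2, the host transcript of a microRNA cluster lost in chronic lymphocytic leukaemia, spans Trim13 and Kcnrg on the other strand without sharing an exon, and holds a match of 219 bases to Eapp. It measured 6.44, 8.09 and 8.34 FPKM in priSG-A, 15.8, 15.4 and 14.1 in priSG-B and 9.42, 10.5 and 7.51 in plpSC. Its values were 16.1, 17.7 and 5.29 FPKM in pacSC, 10.2, 4.32 and 4.52 in rST and 11.7, 6.82 and 16.4 in elST. The priSG-B values were above those of priSG-A and plpSC, with no overlap, and pacSC and elST each held both high and low libraries. Its 6 libraries at 14.1 FPKM or more were those with AY036118 under 100 FPKM, priSG-B among them, and the other 12 lay between 4.32 and 11.7 FPKM, so for priSG-B the type and this split of the libraries cannot be told apart.

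**Figure D3:**
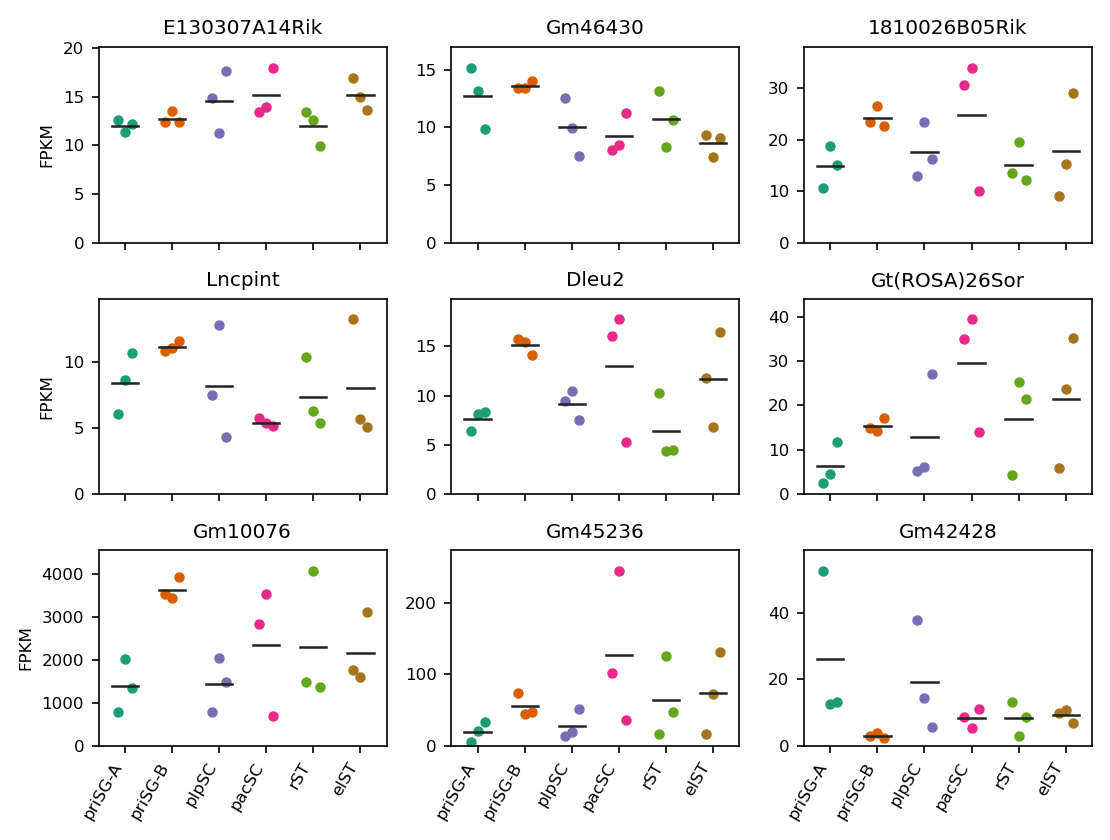
Each point is the FPKM (y axis) of one library and each line the mean of a type (x axis, 3 libraries each) for 9 of the 180 loci. E130307A14Rik stays between 9.94 and 18 FPKM, whereas Gm45236 runs from 5.34 to 244 FPKM with wide spread inside pacSC, rST and elST.

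Each of the 6 loci with the highest means held a copy or a shared exon. Gm10076, the Rpl41 copy shown above, measured 784, 2030.4 and 1339 FPKM in priSG-A, 3542, 3438 and 3933 in priSG-B and 786, 2040.2 and 1476 in plpSC. It measured 2845, 3533 and 688 FPKM in pacSC, 1479, 4079 and 1358 in rST and 1756, 1608 and 3108 in elST. The priSG-B libraries were all above those of priSG-A and plpSC, and above those of elST, and pacSC and rST spread over the whole range. The 6 libraries with AY036118 under 100 FPKM, priSG-B among them, were all at 2845 FPKM or more. Of the other 12, rST replicate 2 was at 4079 FPKM and the rest at 2040.2 FPKM or less. For priSG-B the type and this split of the libraries cannot be told apart. How much of this comes from Rpl41 messenger RNA was not tested.

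Gm28037, whose exon bases all lie in Rpl24 and Zbtb11 exons on the same strand, had a mean of 164 FPKM and ranged from 88.7 in pacSC replicate 3 to 236 in priSG-B replicate 2. Gm50163, opposite the nuclear matrix protein gene Matr3 and starting within 1 kb of Paip2, a regulator of translation, had a mean of 155 FPKM and ranged from 68.8 in rST replicate 2 to 261 in pacSC replicate 2. Gm28901, the Hnrnpf copy, had a mean of 124 FPKM. It measured 209, 204 and 223 FPKM in priSG-B and 58.2, 107 and 92.7 in priSG-A, 64.7, 99.3 and 112 in plpSC, 214, 201 and 67.8 in pacSC, 78.5, 60.3 and 47.2 in rST and 85.2, 112 and 200.3 in elST. Values near 200 FPKM were thus found in elST replicate 3, pacSC replicates 1 and 2 and all of priSG-B, the same 6 libraries in which AY036118 was under 100 FPKM, and the other 12 lay between 47.2 and 112 FPKM. Type and this split of the libraries cannot be told apart for priSG-B, all of whose libraries are on one side. The same 6 libraries had inferred fragments of 234 to 268 bp, against 198 to 214 bp in the other 12. They were all above the other 12 for 8 of the 180 loci (4.44%, against 1.89% of all tested loci): B230377A18Rik, Dleu2, Gm17092, Gm20632, Gm28037, Gm28901, Gm32885 and Gm47882. They were all below for Gm50169 (0.556%, against 0.17%).

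Gm37746 and Gm47164, the fifth and sixth by mean (87.5 and 79.9 FPKM), belong to the largest group of related sequences described next. Gm37746 has 198 bases, no more than the fragment length inferred for any library (198 to 268 bp). What this does to its FPKM was not tested, so its level and rank are uncertain. Gm44510, the Rps12 copy in Nipa1, measured 69.9, 95.8 and 41.4 FPKM in priSG-A, 86.9, 84.3 and 101 in priSG-B, 64.5, 101 and 32.7 in plpSC, 27.5, 33.1 and 28.7 in pacSC, 66.8, 53.8 and 39.5 in rST and 91.3, 36.7 and 29.1 in elST. Its pacSC values lay below every priSG-A and priSG-B value. Gm20632, opposite the histone gene Hist2h2aa2 and with a match of 586 bases to Hist2h2aa1 at 99.8% identity, ranged from 31.4 FPKM in rST replicate 3 to 134 FPKM in priSG-B replicate 3. Gm43055, which shares 71.8% of its exon bases with Ythdc1, a reader of methylated adenosine in RNA, ranged from 9.03 FPKM in rST replicate 2 to 31.1 FPKM in plpSC replicate 1.

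**Figure D4:**
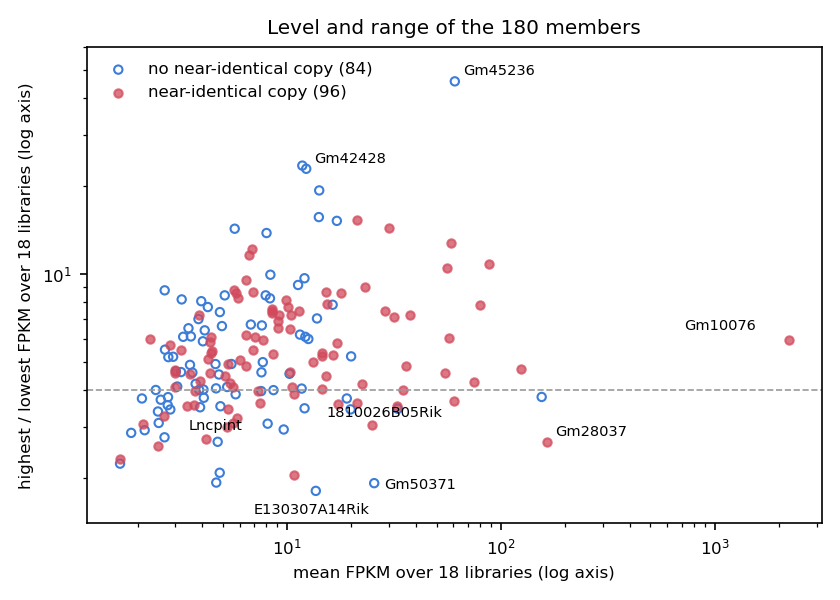
Each circle is 1 of the 180 loci, placed by its mean FPKM over 18 libraries (x axis, log scale) and by the ratio of its highest to its lowest library (y axis, log scale), and filled where it has a near-identical copy. The dashed line marks a ratio of 4, under which 50 loci lie, and Gm10076 stands alone at 2212 FPKM.

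Comparing the 180 loci with each other, 52 (28.9%) fell into 10 groups linked by 95% identity or more over at least 80% of the shorter transcript. Links were chained, so the loci of a group need not all meet this limit with each other. The largest group had 17 loci on 10 chromosomes, 8 of them TEC, and the next had 8, 8, 6 and 3 loci, with pairs making up the rest. The median correlation of log2 profiles between the loci of a group was 0.89, 0.97, 0.94 and 0.90 in the 4 largest, against 0.17 over all pairs of the 180. Not every pair within a group ran in parallel, and the lowest correlation was 0.25 in the group of 17. The group of 3 had a median of 0.72 and a lowest of 0.38, and the pair Gm37758 and Gm42566 had 0.67. These correlations are over 18 libraries, and whether reads were counted at several copies was not tested. The 17 loci of the first group had a median of 70.9 FPKM in pacSC replicate 3 and of 51 FPKM in priSG-A replicate 1, against 13.1, 13.5 and 11.5 FPKM in priSG-B and 13.5 FPKM in rST replicate 2. Within it, Gm48765 inside Lyrm4 measured 63.4, 42.2 and 61.4 FPKM in priSG-A, 25.5, 27.3 and 22.1 in priSG-B, 52.1, 40.4 and 69.6 in plpSC, 85.8, 82.4 and 102 in pacSC, 46.6, 24 and 50.3 in rST and 49.4, 60.2 and 84.9 in elST. The priSG-B libraries were its low end together with rST replicate 2.

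The second group, 8 loci with Gm43546 among them, had a median of 2.04 FPKM in rST replicate 2 and 4.6 FPKM in rST replicate 3, against 13.5 FPKM in priSG-A replicate 1 and 10.9 FPKM in rST replicate 1. The third, with Gm50216 among its 8 loci, had 2.13 and 3.87 FPKM in those rST replicates 2 and 3 and 11.3 FPKM in replicate 1. The fourth, with Gm42887 among its 6 loci, had 1.31, 2.84 and 8.69 FPKM in rST replicates 2, 3 and 1. In each of these 3 groups rST replicate 2 was the lowest library and rST replicate 3 the next lowest, which were the libraries with the highest level of the Tnp1-overlapping locus. Over the 96 loci with a copy the lowest library was rST replicate 2 for 48, and over the 84 without one it was for 10.

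Gm42713, Gm43546 and Gm43601 on chromosome 5 have identical sequence over their shared length, and in no library did their FPKM spread by more than 2.54%, with a median spread of 0.889%. Gm42428 on chromosome 5 and Gm48275 on chromosome 10 form a pair of short lincRNAs of 302 and 287 bases. Inferred fragments were 234 to 268 bp in the 6 libraries with AY036118 under 100 FPKM, priSG-B among them, and 198 to 214 bp in the other 12. What this does to the FPKM of such short loci was not tested. Gm42428 measured 52.6, 12.5 and 13 FPKM in priSG-A, 2.82, 3.73 and 2.29 in priSG-B, 37.9, 14.2 and 5.63 in plpSC, 8.47, 5.31 and 10.9 in pacSC, 13.1, 3.01 and 8.53 in rST and 9.68, 10.8 and 6.68 in elST. Gm48275 measured 52.4, 12.9 and 10.2 FPKM in priSG-A and 37.5, 11.1 and 5.15 in plpSC, and the profiles of the pair correlated at 0.99. Replicate 1 of priSG-A and of plpSC were the 2 high libraries for both loci, and the 3 priSG-B libraries and rST replicate 2 were low. How the reads of such copies were divided between loci is not given in the sources used here.

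**Figure D5:**
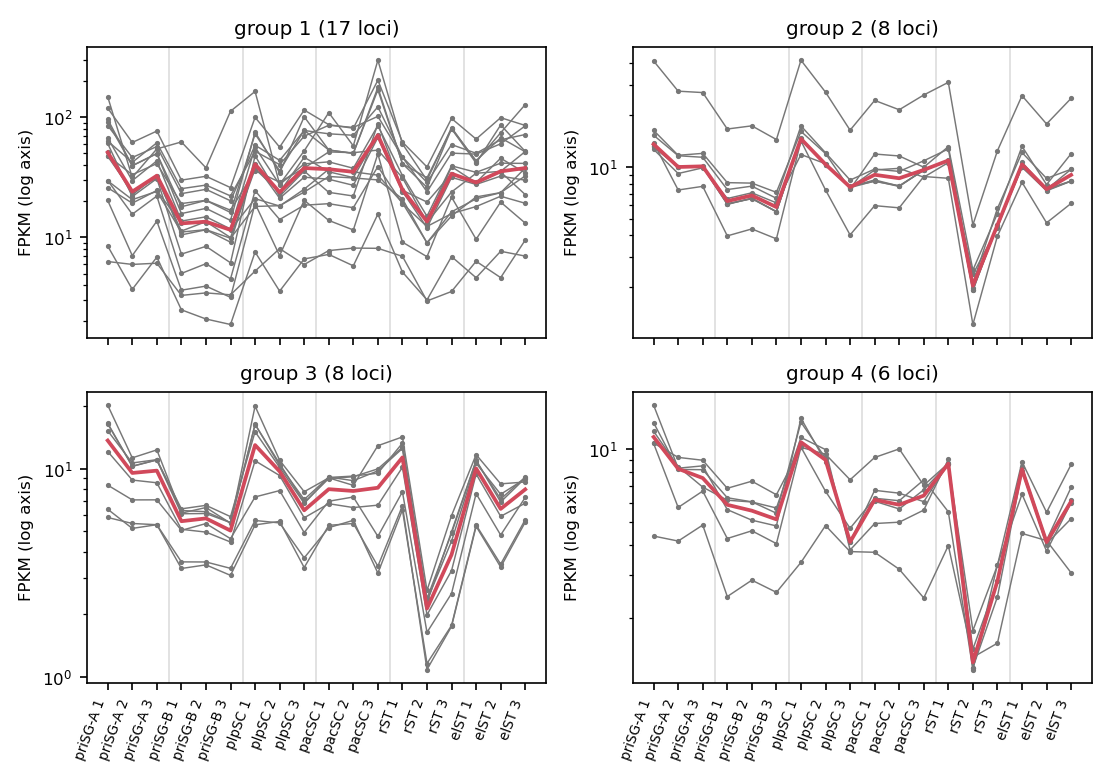
Grey lines are the FPKM (y axis, log scale) of each locus over the 18 libraries (x axis) and red lines the group median, for the 4 largest groups of loci with shared sequence. Groups 2 to 4 dip in rST replicate 2, to medians of 2.04, 2.13 and 1.31 FPKM, and group 1 is highest in pacSC replicate 3.

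A level in every library did not mean a steady one for all loci. Gm45236 had the widest range, a ratio of 45.8. It is a TEC locus of 229 bases at chr7:118688545-118688773 that lies wholly in an exon of Gde1, a glycerophosphodiester phosphodiesterase, on the other strand. It is shorter than the fragments inferred for the 6 libraries with AY036118 under 100 FPKM (234 to 268 bp). In the other 12 libraries the inferred fragments were 198 to 214 bp. What this does to its FPKM was not tested, so its range and differences are uncertain. It measured 5.34, 20.9 and 32.5 FPKM in priSG-A, 73.8, 44.4 and 46.3 in priSG-B and 12.7, 19.4 and 50.8 in plpSC. It measured 101, 244 and 35.9 FPKM in pacSC, 16.6, 126 and 47.1 in rST and 16.6, 71.9 and 130.3 in elST. The 3 priSG-B libraries were above the 3 priSG-A libraries, and in each later type at least 1 library lay below the priSG-B range and at least 1 within or above it.

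Gm26571, opposite the ribosomal oxygenase gene Riox1 and started within 1 kb of it, measured 1.51, 6.69 and 8.58 FPKM in priSG-A, 15.1, 17.1 and 14.4 in priSG-B, 1.93, 7.16 and 28.1 in plpSC, 29.1, 29.1 and 9.25 in pacSC, 4.66, 15.4 and 8.6 in rST and 5.15, 24.2 and 28.5 in elST. Its ratio of highest to lowest was 19.4, with priSG-A and plpSC replicate 1 lowest. Gm29055, a sense intronic locus in Dis3l2 and 1 of the 17 related loci, had a ratio of 15.7, and 6.83 without the 5 libraries, since its highest value, 49.7 FPKM, was in pacSC replicate 3. Gt(ROSA)26Sor, the locus widely used for ubiquitous transgene expression, is named here after its values were seen. It measured 2.59, 4.54 and 11.7 FPKM in priSG-A, 14.9, 14.2 and 17.2 in priSG-B, 5.19, 6.11 and 27.1 in plpSC, 35.1, 39.4 and 14 in pacSC, 4.2, 25.3 and 21.5 in rST and 5.85, 23.6 and 35.2 in elST. Its ratio was 15.2, with and without the 5 libraries, and the low libraries were priSG-A replicates 1 and 2, plpSC replicates 1 and 2 and replicate 1 of rST and elST.

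A group of 13 loci had neither a copy nor an overlap with, or a start within 1 kb of, a coding gene. They were Gm12840, Gm42428, 5430416N02Rik, Gm36445, Gm48275, Gm42566, Lncpint, Gm28050, Gm38246, 6720427I07Rik, Mir9-3hg, Gm19705 and 4933407K13Rik, of which Gm42428 and Gm48275 match each other and Gm42566 matches another of the 180. Their means lay between 2.10 and 12.6 FPKM and their median ratio was 5.89. Mir9-3hg, a host transcript of a microRNA known for its role in neural tissue, measured 1.81, 2.78 and 2.37 FPKM in priSG-A, 3.94, 4.09 and 4.2 in priSG-B, 1.79, 1.65 and 4.9 in plpSC, 4.6, 5.6 and 6.96 in pacSC, 2.28, 3.59 and 4.81 in rST and 2.61, 4.43 and 4.88 in elST. The priSG-A libraries lay below those of priSG-B and pacSC, and the later types overlapped.

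Promoter windows from RefSeq (GRCm38.p6, 250 bases before to 50 after the start) were matched for 43 of the 180 loci, for 1487 of the other tested loci and for 27025 genes in all. A CpG observed to expected ratio over 0.6 was found in 29 of the 43 (67.4%), in 26.6% of the other tested loci and in 36.4% of all genes. CCGGAAG, the core letters of an ETS-type motif, was found on either strand in 14 (32.6%), against 8.20% and 9.12%. GGGCGG, the letters of a GC box, was in 22 (51.2%), against 26.5% and 35.9%. AAGATGGCG, which holds the core of the YY1 motif, was in 4 (9.30%), against 1.14% and 1.49%. TATAAA was in 2 (4.65%), against 12.9% and 14.2%, and CCAAT in 14 (32.6%), against 38.7% and 37.9%. CACGTG was in 11.6% against 7.2% and 7.24%, TGACGTCA in 2.33% against 2.42% and 1.88%, and the NRF1 motif in 0 of 43 against 0.471% and 0.977%. A coding gene started within 1 kb on the other strand for 28.9% of the 180 and for 18.9% of the other tested loci. That share was 28.6% among the 185 loci outside the fold limit and 33.9% among loci in 13 to 17 libraries. It is thus not particular to the 180. CpG and motif shares were not computed for those sets, and whether the windows double as coding promoters was not tested. A match of letters describes the window and does not show that a factor binds there.

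The windows of 3 loci are printed to show the contrast among them, with the searched motifs in capitals. 9130221H12Rik, one of the steadiest loci, has a window with few CpG (ratio 0.08) and 0 matches at chr7:25228473-25228772, plus strand. Gm46430, equally steady, has a CCAAT and a reversed CCGGAAG at chr13:74617272-74617571, minus strand. Gm4419, with a ratio of 15.4 over the libraries and a shared exon with the phosphoserine-binding protein gene Ywhaq, has a CpG ratio of 0.752, 2 CCAAT and 2 overlapping GGGCGG at chr12:21417632-21417931, plus strand.
9130221H12Rik: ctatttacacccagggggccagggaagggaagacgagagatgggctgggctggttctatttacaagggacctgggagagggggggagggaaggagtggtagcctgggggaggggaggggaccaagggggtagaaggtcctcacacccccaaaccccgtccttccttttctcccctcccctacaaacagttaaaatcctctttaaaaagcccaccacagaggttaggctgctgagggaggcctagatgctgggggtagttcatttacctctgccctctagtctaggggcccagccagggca
Gm46430: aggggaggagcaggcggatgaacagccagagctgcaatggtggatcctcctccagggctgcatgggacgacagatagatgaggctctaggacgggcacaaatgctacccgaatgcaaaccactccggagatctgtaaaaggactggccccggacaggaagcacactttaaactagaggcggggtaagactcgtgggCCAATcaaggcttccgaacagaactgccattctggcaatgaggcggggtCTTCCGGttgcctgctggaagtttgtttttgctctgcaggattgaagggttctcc
Gm4419: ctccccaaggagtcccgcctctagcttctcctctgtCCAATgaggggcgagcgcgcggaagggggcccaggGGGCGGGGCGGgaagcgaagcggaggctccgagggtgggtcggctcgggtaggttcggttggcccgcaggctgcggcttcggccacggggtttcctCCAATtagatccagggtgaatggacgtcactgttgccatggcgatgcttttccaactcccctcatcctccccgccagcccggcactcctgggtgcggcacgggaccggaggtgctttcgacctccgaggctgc

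The choice of loci had not compared the means of plpSC with priSG-A or of elST with plpSC, and limma on log2(FPKM + 1) was run for both over all 4117 loci. The minimum of 1 FPKM did apply to each of these libraries and keeps out loci that are at or near 0 in one of the types. The counts and shares of the 180 below are therefore a description, and nothing is read from how they compare with those of all loci. For plpSC against priSG-A, 0 of the 180 loci passed an adjusted p of 0.05, where 0% of all tested loci did; 0 of the 180 and 8 of the 4117 had an unadjusted p under 0.05. The differences of the 180 had a median of -0.01 and ran from -0.68 to 0.87 on the log2 scale, with a median standard error of 0.50. None of the 180 differed by 1 or more on the log2 scale, against 5.27% of all loci higher and 0.996% lower. Fold changes on this scale understate those of low loci.

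For elST against plpSC, 0 of the 180 passed, as did 0% of all tested loci, and 0 of the 180 and 42 of the 4117 had an unadjusted p under 0.05. The smallest adjusted p from limma was 0.915. The median difference of the 180 was 0.05, between -0.91 and 1.18, against 0.29 over all loci. With quantile normalization these medians were -0.52 and -0.03, so the direction turned; for plpSC against priSG-A they were -0.30 and 0.01. A difference of 1 or more was measured for 3 loci (1.67%), against 15.8% of all loci, and a difference of -1 or less for 0, against 0.874%. The 3 were Gm45236 (1.18, SE 0.94), Gm4419 (1.03, SE 0.79) and Gm32885 (1.03, SE 0.56). Gm32885 measured 2.13, 2.11 and 6.5 FPKM in plpSC and 5.88, 6.96 and 10.2 in elST, and Gm4419 3.21, 4.26 and 21.1 in plpSC and 5.58, 23.4 and 25.2 in elST. In Gm4419 plpSC replicate 3 lay near elST replicates 2 and 3, and elST replicate 1 near plpSC replicates 1 and 2, so the types overlapped. In Gm32885 plpSC replicate 3 lay between elST replicates 1 and 2.

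These counts of 0 were obtained with the libraries that stood apart in the fit. Without the 5, elST replicates 2 and 3 against plpSC replicates 1 and 2 gave 3173 called loci of 4117 (77.1%), and 58 of the 180 (32.2%). Over all tested loci elST replicate 3 correlated with pacSC replicate 1 at 0.961. The Tnp1-overlapping locus was at 73 FPKM in elST replicate 3 and at 875 FPKM in elST replicate 2. Of the libraries compared, only elST replicate 3 had AY036118 under 100 FPKM, and the part this has in the calls was not tested. Of the 180, 43 (23.9%) were higher in elST, where 57.1% of all loci were, and 15 (8.33%) were lower, where 20% of all loci were. The 5 libraries had been named from their expression, so these calls are not independent of it, and the minimum of 1 FPKM in every elST and plpSC library limits the share of the 180 by its own construction. The highest differences were those of Gm45236 (2.55, SE 0.69, limma adjusted p = 0.00679), Gm26571 (2.48, SE 0.56, adjusted p = 0.00244) and Gm4419 (2.42, SE 0.30, adjusted p = 4.15e-05). The lowest were those of Gm48342 (-1.93, SE 0.32, adjusted p = 0.000297), Gm44510 (-1.28, SE 0.34, adjusted p = 0.00599) and Gm12840 (-1.10, SE 0.39, adjusted p = 0.0252). Gm48342 measured 19.2, 11.4 and 3.48 FPKM in plpSC and 8.86, 3.83 and 2.55 in elST, so that in the full set the types overlap. Gm45236, Gm26571, Gm4419, Gm44510 and Gm12840 were not called with all libraries either (limma adjusted p = 0.915 for each). Of the known RNAs, Lncpint was lower in elST by the same fit (-0.76, SE 0.27, limma adjusted p = 0.0259), with the other 2 not called. That call rests on the libraries left out, since elST replicate 1 was its highest library and plpSC replicate 3 its lowest, and with all libraries the difference was -0.04 (SE 0.51, limma adjusted p = 0.983). Of the 58, 16 had a near-identical copy, where 96 of all 180 (53.3%) did. For plpSC against priSG-A the same 5 left out gave 0 called loci of 4117. An unadjusted p under 0.05 by limma was found for 4 of the 180 and for 173 of the 4117.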

How the data were processed

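RNA of 6 germ cell populations, 3 libraries each, was measured by RNA-seq. The authors deposited 1 table of FPKM for 13218 loci, and the submitters' processing notes name HISAT2, StringTie and the mm10 build, with no versions. Annotation, strand setting and treatment of reads with several matches are not given in the sources used for this work. Identifiers were matched to GENCODE M21 (13191 of 13218), and 176 of the 180 loci had the same start and end. Coordinates are 1-based.

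The loci, gene lists and tests were chosen with earlier results of these data known. Values were tested as log2(FPKM + 1) in limma 3.58.1 (R 4.3.3), using its trend and robust options and 1 coefficient per type, over the 4117 loci that reached 1 FPKM in 3 or more libraries, which all 180 passed. Tests were two-sided with Benjamini-Hochberg adjustment. The step was tested on simulated data. Copies were searched with BLAST 2.17.0 among M21 transcripts, other tools being Python 3.11.15, pandas 2.3.3 and networkx 3.6.1. Motifs were searched on both strands. In loci of a single exon, 95.1% to 97.7% of low values were whole multiples of 1 fragment within 0.05, from which depth was inferred, with fragment lengths of 198 to 268 bp. Intervals for single values were not computed.

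Named were the 6 loci with the highest mean, the 5 with the lowest and the 5 with the highest ratio over libraries, the known RNAs, up to 3 called loci each way, and loci whose values show shared sequence. A named locus outside these was chosen after its values were seen. Replicate numbers paired plpSC with priSG-A in the data (correlations of deviations 0.65, 0.68 and 0.73) but not elST with plpSC (0.869, -0.826 and 0.388), and the labels say nothing of pairing.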

Additional observations from a re-analysis of the deposited data

How the results depend on the processing

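The number of loci followed the limits: 272 at a minimum of 0.5 FPKM, 100 at 2 FPKM, 41 with the 3 means within 2-fold, and 300 (the cap) with no limit on fold, of which 139 are among the 180. With the means of all 6 types within 4-fold it was 227, of which 159 are shared, and over libraries left out in turn it ranged from 180 to 198 (198 without rST replicate 2). Leaving out the 5 libraries gave 184. Pooled matches over at least 50% of a transcript, a definition chosen after seeing the data, were in 57 loci. A copy was in 96 with 100 bases, 83 with 200 bases and 67 at 98% identity. For plpSC against priSG-A, 15 of 16 alternatives gave 0 called loci, and 1 locus was called with no filter on low values. For elST against plpSC, 13 of 16 gave 0, 1 locus was called with no filter, and the range over libraries left out was 0 to 1, the 1 being without elST replicate 1. Without the 5 libraries, 3173 loci and 58 of the 180 were called; the cause was not tested. The replicate block gave 0 called loci in both comparisons and changed no other call. Quantile normalization gave 0 called loci. Depth leaves the 10 loci of 400 bases or less without an inferred number of fragments. The number of libraries, the unmarked strand and reads shared between copies limit all levels.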
